A study of Mus musculus with 19 samples.

Results

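The genes described here are 56 factors that build ribosomes without being part of the finished particle, taken from the 52143 genes of a count table for mouse induced pluripotent stem cells (iPSCs). They were chosen by name, as genes of this pathway, but with earlier results of these data known. All 56 were found and were among the 19702 genes tested. By role they fall into 3 proteins of box C/D particles, 4 proteins of H/ACA particles, 5 nucleolar or multi-step factors, 19 factors of the large subunit and 25 factors of the small subunit. The lowest level of any of them in any line was 36.1 CPM (the count relative to the library size, here after TMM scaling), so all were well above the filter on low counts.

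Ribosomes are made in the nucleolus, where a long precursor RNA is transcribed by RNA polymerase I and then modified, folded and cut while ribosomal proteins join it. Small nucleolar RNAs guide the modifications: box C/D particles carry the methyltransferase fibrillarin and methylate ribose, and H/ACA particles carry the pseudouridine synthase dyskerin. The small subunit processome and the pre-ribosomal particles of the large subunit then mature along separate routes and are exported to the cytoplasm, and fast-growing cells such as pluripotent stem cells express these factors strongly.

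The libraries came from 2 corrected lines (4 libraries), 4 db/db lines (8 libraries) and 4 control lines (7 libraries). Control lines were wild type and db/db lines were homozygous for the db allele of the leptin receptor gene, and both were reprogrammed from fibroblasts of embryonic day 14.5 obtained by crossing OB-Rdb/+ mice. Corrected lines were db/db iPSCs whose gene was repaired with CRISPR-Cas9, and the labels do not say which db/db line they came from. Lines of all 3 groups go back to cells infected with a STEMCCA lentivirus that carries Oct4, Sox2, Klf4 and cMyc, the last of these a gene whose product is known to regulate ribosome biogenesis. The corrected lines are named db_c_1 and db_c_2, the db/db lines adb_db5, adb_db7, bdb_db5 and bdb_db7, and the control lines aB6_A5, aB6_B1, bB6_A5 and bB6_B1. Values per line are given in these orders throughout. Lines that share a clone name (db5, db7, A5 or B1) were near copies: over the 56 genes they differed by a median of 0.0317 to 0.0774 on the log2 scale, and the 2 corrected lines by 0.0226, against 0.0818 to 0.149 for lines of different clone names in one group.

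Total counts per library were 27333914 to 41203703. Gm42418 took 4.81% of the counts in the second library of adb_db7 and 0.0688% to 0.514% in the others. The leptin receptor gene, Lepr, was at 0.718 and 0.606 CPM in the corrected lines, against 0.368, 0.186, 0.371 and 0.297 CPM in the db/db lines and 0.348, 0.431, 0.460 and 0.456 CPM in the control lines, and its total level does not show whether the allele was repaired. Of the genes that define pluripotent cells, Pou5f1 was at 1287 and 1299 CPM in the corrected lines, 1444 to 1604 CPM in the db/db lines and 1470 to 1521 CPM in the control lines. Sox2 was at 413 and 394 CPM in the corrected lines, 586 to 727 CPM in the db/db lines and 434 to 502 CPM in the control lines. Nanog went the other way against db/db, at 553 and 542 CPM in the corrected lines, 384 to 428 CPM in the db/db lines and 471 to 617 CPM in the control lines.

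Ribosome biogenesis factors were lower in the corrected lines than in both other groups. Against the db/db lines 47 of the 56 genes fell and 0 rose (edgeR quasi-likelihood test, Benjamini-Hochberg adjusted p under 0.05), where 18.0% of all genes tested fell. The share that fell was 83.9% of the 56 factors, against 30.6% of the 9148 genes that averaged 10 CPM or more and 40.2% of the 4311 genes that averaged 50 CPM or more, while 18.7% of all genes and 8.21% of those from 50 CPM rose. Their median log2 fold change was -0.44, against 0.02 for all genes tested, -0.12 for those from 10 CPM and -0.20 for those from 50 CPM. Against the control lines, a comparison that uses the same corrected lines, 47 of 56 fell and 0 rose, where 17.0% of all genes tested, 26.9% of those from 10 CPM and 34.1% of those from 50 CPM fell, and 16.2% of all genes and 9.9% of those from 50 CPM rose. The median of the 56 was -0.40, against -0.01 for all genes. These are bulk samples, in which fewer cells of a type and less RNA per cell cannot be told apart.

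In 48 of the 56 genes both corrected lines lay below all 8 other lines, as did 20.4% of all genes tested, and in 0 of the 56 both lay above. Both corrected lines were below the 4 db/db lines in 50 genes, against a background of 28.8%, and below the 4 control lines in 53 genes, against 30.5%. The median gene was -0.40 and -0.42 on the log2 scale relative to the control mean in the corrected lines, 0.05, 0.00, 0.07 and 0.01 in the db/db lines and 0.05, -0.04, 0.01 and -0.02 in the control lines. On library size alone, without TMM scaling, 36 genes fell in each comparison, and the medians were -0.27 with an all-gene median of 0.19 against db/db and -0.27 with an all-gene median of 0.12 against control, which is -0.46 and -0.39 relative to all genes. When each clone name counted as 1 sample, 40 of the 47 genes kept their call against db/db and 31 of the 47 against control, and without corrected line 1 or 2 the fall against control was called for 30 and 29 genes. By clone name the calls lost against db/db were Npm1, Pes1, Rrp1, Ltv1, Ddx56, Noc2l and Emg1. Those lost against control were Ncl, Npm1, Nop2, Pes1, Bop1, Ebna1bp2, Tbl3, Ltv1, Gnl2, Gnl3, Nmd3, Mrto4, Ddx56, Noc3l, Imp3 and Pno1.

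Single duplicate libraries of the 9 lines that have them differed by 0.0289 to 0.115. The lines db_c_1 and db_c_2, each summed over 2 libraries, differed by 0.0226, which is not on equal terms because sums are less noisy. When they were counted as 1 sample and each clone name as 1 sample, a setting chosen after seeing the data, edgeR called 0 of the 56 genes in either comparison, with 35 genes against db/db and 31 against control at an unadjusted p under 0.05. No other tool was run at that setting. The tests by line therefore measure a difference between these lines, and the correction cannot be told apart from anything else that these near-identical lines and their libraries, named by another scheme than the others, have in common.

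**Figure D1:**
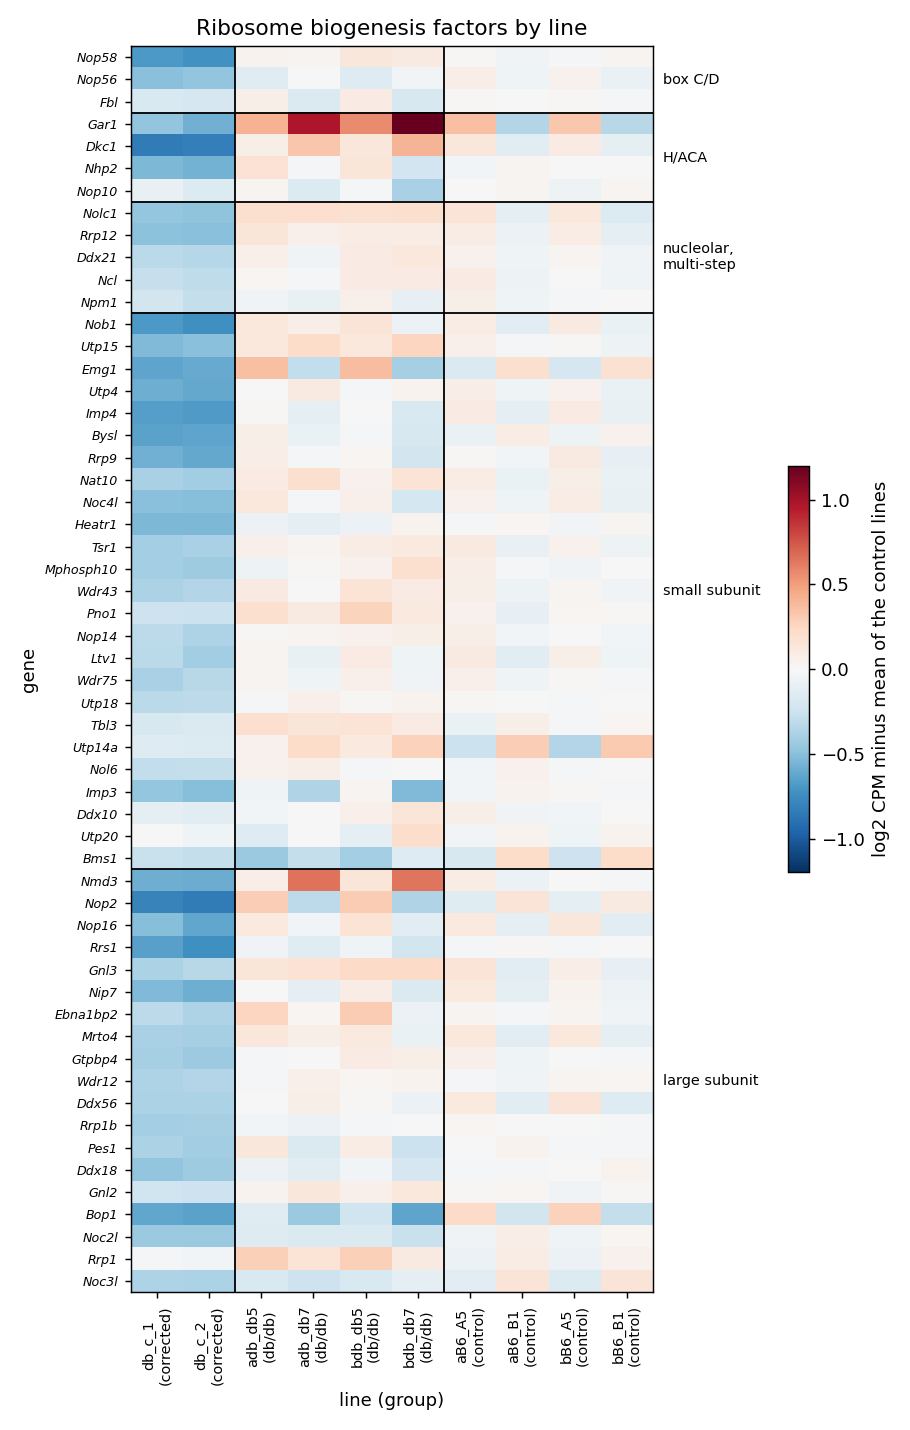
Log2 CPM of each of the 56 genes (rows, grouped by class) minus its mean over the 4 control lines, in the 2 corrected, 4 db/db and 4 control lines (columns); blue is lower and red is higher. The corrected columns are blue in nearly every row, with a median of -0.40 and -0.42, while Gar1 and Nmd3 are reddest in the db7 lines.

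Promoter sequences were at hand for 48 of the 56 genes, as windows from 250 bases before to 50 after the RefSeq start (GRCm38.p6). The E-box CACGTG, which reads the same on both strands and is a known binding word of MYC-MAX dimers and of other factors, was in 11 of these 48 windows (22.9%), against 2187 of all 27025 windows (8.09%). Of the 11, 4 had it before the start (Nop2, Nmd3, Imp4 and Utp18) and 7 in the 50 bases after it (Utp4, Ltv1, Utp20, Pes1, Pno1, Tsr1 and Wdr43). The 27025 windows were not limited to genes expressed in these cells. No share was computed for genes of a level like that of the factors, so the E-box shares are not matched for expression. A second motif that was searched, that of NRF1, was in 1 of the 48 windows (2.08%), that of Pno1, against 290 of all 27025 (1.07%). These matches describe letters and no binding was measured.

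The 130 bases before the start are shown, 5′ to 3′ with any E-box in capitals, for the 4 genes that have one there and for Nop58 and Dkc1, 2 core particle genes without one in this stretch. Nop58 is chr1:59684876-59685005 on the plus strand, Dkc1 is chrX:75095724-75095853 on the plus strand, Nop2 is chr6:125131753-125131882 on the plus strand, Nmd3 is chr3:69721925-69722054 on the plus strand, Imp4 is chr1:34439699-34439828 on the plus strand and Utp18 is chr11:93885767-93885896 on the minus strand.
Nop58: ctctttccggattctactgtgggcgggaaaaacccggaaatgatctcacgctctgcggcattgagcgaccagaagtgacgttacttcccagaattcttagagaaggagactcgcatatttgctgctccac
Dkc1: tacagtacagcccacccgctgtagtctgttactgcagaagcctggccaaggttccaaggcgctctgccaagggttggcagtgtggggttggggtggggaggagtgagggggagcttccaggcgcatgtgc
Nop2: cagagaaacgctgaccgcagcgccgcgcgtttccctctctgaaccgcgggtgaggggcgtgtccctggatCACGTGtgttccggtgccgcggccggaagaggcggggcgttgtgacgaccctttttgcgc
Nmd3: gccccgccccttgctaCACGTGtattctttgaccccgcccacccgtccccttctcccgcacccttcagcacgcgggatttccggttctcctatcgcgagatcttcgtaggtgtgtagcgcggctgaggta
Imp4: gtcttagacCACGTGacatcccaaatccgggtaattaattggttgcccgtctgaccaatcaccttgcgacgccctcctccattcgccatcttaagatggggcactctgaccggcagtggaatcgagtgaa
Utp18: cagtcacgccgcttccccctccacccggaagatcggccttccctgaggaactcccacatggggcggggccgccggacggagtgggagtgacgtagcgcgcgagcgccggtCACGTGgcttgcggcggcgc
The first base of the E-box lies 60 bases before the start in Nop2, 114 in Nmd3, 121 in Imp4 and 20 in Utp18. All 4 of these genes fell in the corrected lines against db/db, and so did Nop58 and Dkc1. Of all 11 genes with the word only Utp20 did not pass that test, where 47 of all 56 factors (83.9%) fell, with or without the word.

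Of the box C/D core, the scaffold proteins Nop58 and Nop56 fell and the methyltransferase Fbl did not pass the test. Nop58 was at 263 and 257 CPM in the corrected lines, against 437, 435, 465 and 457 CPM in the db/db lines and 429, 412, 421 and 433 CPM in the control lines. The corrected lines were far below all others, and the db/db lines lay just above the control lines. Log2 fold changes, here and below with their SE, were -0.79 ± 0.06 (edgeR adjusted p = 3.2e-05) against db/db and -0.70 ± 0.05 (edgeR adjusted p = 5.8e-05) against control.

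Nop56, the partner of Nop58 in the particle, was at 397 and 406 CPM in the corrected lines, against 509, 565, 506 and 549 CPM in the db/db lines and 596, 543, 583 and 532 CPM in the control lines. Both corrected lines were the lowest, and the db/db and control lines overlapped. The log2 fold changes of Nop56 were -0.41 ± 0.07 (edgeR adjusted p = 0.0021) against db/db and -0.49 ± 0.07 (edgeR adjusted p = 0.001) against control. Fbl, which encodes fibrillarin, was at 269 and 265 CPM in the corrected lines, against 319.9, 271, 326 and 268 CPM in the db/db lines and 307, 307, 308 and 299.6 CPM in the control lines. The db7 lines were at the level of the corrected lines and the db5 lines were the highest of the 10. The log2 difference was -0.15 (95% interval -0.34 to 0.04, edgeR adjusted p = 0.2) against db/db and -0.19 (95% interval -0.39 to -0.0012, edgeR adjusted p = 0.11) against control.

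Proportions between scaffold and enzyme genes of the same particle were lower in the corrected lines. The log2 ratio of Nop58 to Fbl CPM was -0.03 and -0.05 in the corrected lines and 0.43 to 0.77 in the other 8 lines. The ratio of Nop56 to Fbl was 0.56 and 0.61 in the corrected lines and 0.63 to 1.06 in the others, just without overlap. Each ratio sets a gene that fell over one that passed the test in neither comparison. Lower ratios are therefore no finding separate from those calls. These ratios are not per length and are given as a description.

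Of the H/ACA core, the pseudouridine synthase gene Dkc1 and the binding protein gene Nhp2 fell in both comparisons. Dkc1 was at 229 and 232 CPM in the corrected lines, against 429.6, 515, 448 and 544 CPM in the db/db lines and 450.0, 375, 439 and 379 CPM in the control lines. By a wide margin the corrected lines were the lowest, and among the others the db7 lines were the highest. The log2 fold change was -1.07 ± 0.12 (edgeR adjusted p = 0.00019) against db/db and -0.84 ± 0.11 (edgeR adjusted p = 0.00074) against control.

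Nhp2, an RNA-binding core protein, was at 147 and 144 CPM in the corrected lines, against 241, 211, 237 and 182 CPM in the db/db lines and 209, 218, 214 and 213 CPM in the control lines. All other lines were above the corrected ones, with bdb_db7 the closest. The log2 fold changes of Nhp2 were -0.58 ± 0.10 (edgeR adjusted p = 0.0022) against db/db and -0.55 ± 0.10 (edgeR adjusted p = 0.0032) against control. Nop10, the smallest core protein, was at 69.0 and 65.5 CPM in the corrected lines, against 74.9, 65.4, 72.4 and 56.1 CPM in the db/db lines and 73.3, 74.8, 70.3 and 74.8 CPM in the control lines. Here the corrected lines lay inside the range of the db/db lines and below the control lines. Its log2 fold change was 0.0013 (95% interval -0.23 to 0.23, edgeR adjusted p = 0.99) against db/db and -0.12 (95% interval -0.36 to 0.11, edgeR adjusted p = 0.38) against control.

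Gar1, which joins the mature H/ACA particle late, was at 66.4 and 62.0 CPM in the corrected lines, against 123, 181, 137 and 211 CPM in the db/db lines and 119, 72.2, 116 and 73.2 CPM in the control lines. Lowest were the corrected lines, with the B1 control lines close to them, and the db7 lines were the highest. Gar1 had the largest fall of the 56 genes against db/db, at -1.34 ± 0.28 (edgeR adjusted p = 0.0046), but did not pass the test against control, at -0.56 ± 0.27 (edgeR adjusted p = 0.13). The log2 ratio of Dkc1 to Nop10 was 1.73 and 1.82 in the corrected lines, against 2.33 to 3.28 in the other lines, and that of Nhp2 to Nop10 was 1.09 and 1.14, against 1.51 to 1.71. Here too a gene that fell was set over one called in neither comparison, and no ratio was computed for Gar1.

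**Figure D2:**
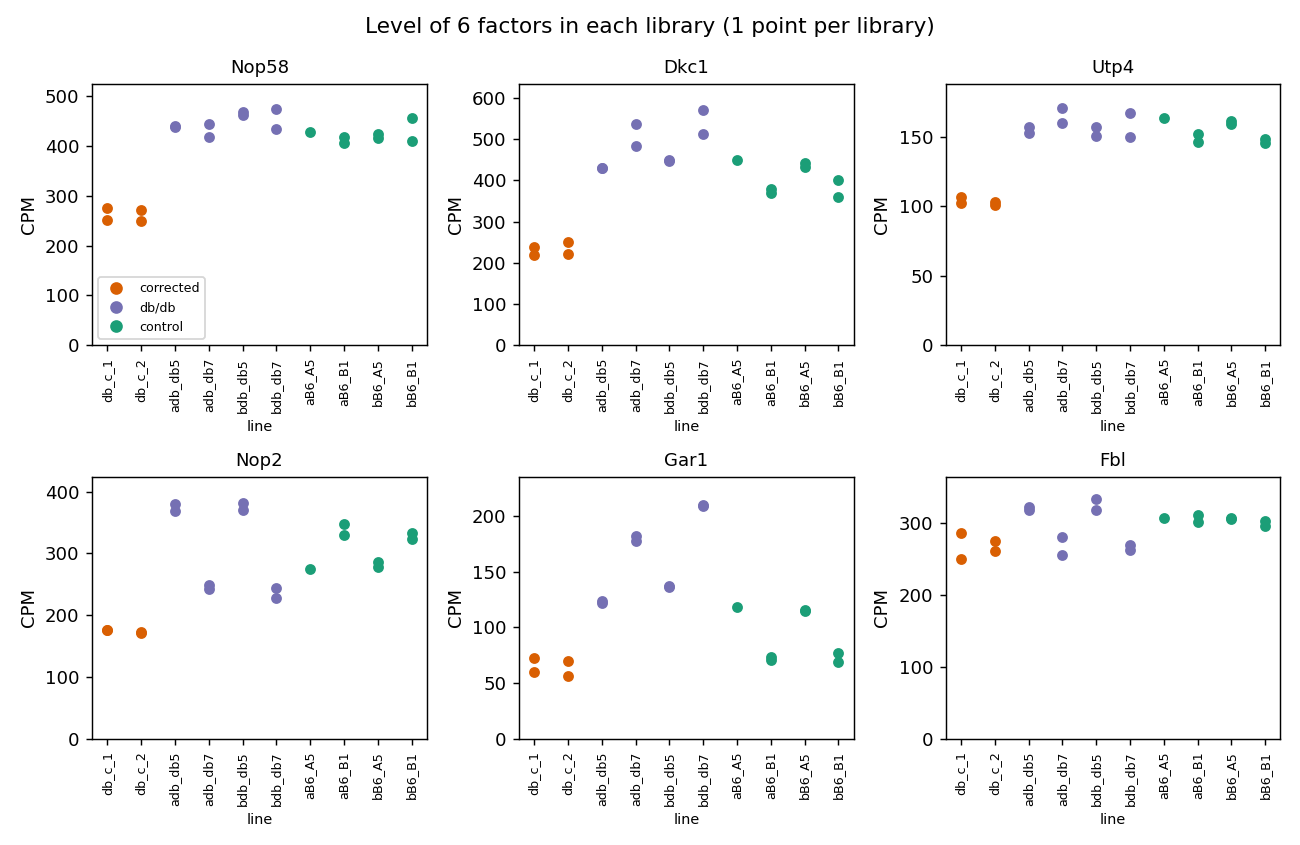
CPM (y axis, from 0) of Nop58, Dkc1, Utp4, Nop2, Gar1 and Fbl in each of the 19 libraries, by line (x axis). Duplicates lie close together, and the 4 corrected libraries are below all others for Nop58, Dkc1, Utp4 and Nop2 but not for Gar1 and Fbl.

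All 5 nucleolar or multi-step factors fell in both comparisons with lines as samples. By clone name the fall of Npm1 was not called against db/db or control (edgeR adjusted p = 0.11 and 0.085), nor was that of Ncl against control (edgeR adjusted p = 0.058). Nolc1, a chaperone of nucleolar particles also known as Nopp140, was at 365 and 361 CPM in the corrected lines, against 577, 582, 574 and 576 CPM in the db/db lines and 561, 464, 553 and 450.1 CPM in the control lines. The 4 db/db lines were almost equal and above the control lines, among which the B1 lines were lower. Nolc1 fell by a log2 fold change of -0.67 ± 0.09 (edgeR adjusted p = 0.00067) against db/db and -0.48 ± 0.09 (edgeR adjusted p = 0.0038) against control.

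Rrp12, a factor in the export of both subunits, was at 93.4 and 92.9 CPM in the corrected lines, against 146, 137, 139.8 and 140.1 CPM in the db/db lines and 139.9, 126, 140.0 and 122 CPM in the control lines. The db/db and control lines overlapped and the corrected lines were the lowest. The log2 fold change was -0.60 ± 0.07 (edgeR adjusted p = 0.00033) against db/db and -0.50 ± 0.07 (edgeR adjusted p = 0.0009) against control. Ddx21, an RNA helicase of the nucleolus, was at 574 and 568 CPM in the corrected lines, against 749, 697, 769 and 783 CPM in the db/db lines and 746, 694, 737 and 700.5 CPM in the control lines. Again the corrected lines were below all others. Fold changes on the log2 scale were -0.39 ± 0.06 (edgeR adjusted p = 0.0014) against db/db and -0.33 ± 0.06 (edgeR adjusted p = 0.0036) against control, and the call against control was lost without corrected line 2 (edgeR adjusted p = 0.052).

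The abundant nucleolar proteins nucleolin and nucleophosmin moved least in this class. Ncl was at 2269.9 and 2216 CPM in the corrected lines, against 2796, 2703, 2933 and 2936 CPM in the db/db lines and 2934, 2639, 2759.6 and 2655 CPM in the control lines. Both other groups were higher and overlapped, with log2 fold changes of -0.34 ± 0.07 (edgeR adjusted p = 0.0033) and -0.29 ± 0.07 (edgeR adjusted p = 0.008) against db/db and control. Npm1 had the smallest fall of those called against db/db, at -0.21 ± 0.07 (edgeR adjusted p = 0.028), and its log2 fold change against control was -0.25 ± 0.07 (edgeR adjusted p = 0.015). Per kilobase of exon, Npm1 was the most abundant of the 56 genes, at 1143 CPM per kb in the corrected group, 1326 in the db/db group and 1363 in the control group, followed by Ncl at 220.1, 279 and 269.6 CPM per kb. Npm1 has processed pseudogenes, so its estimated counts are uncertain.

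Of the 19 large subunit factors 17 fell against db/db and 18 against control, with median log2 fold changes of -0.39 and -0.41. Rrs1, needed to bring the smallest ribosomal RNA into the large subunit in yeast, was at 86.8 and 81.7 CPM in the corrected lines, against 132, 123, 132 and 117 CPM in the db/db lines and 135, 138, 135 and 137 CPM in the control lines. Each group stood apart, with the corrected lines lowest and the db/db lines just under the control lines. The log2 fold change was -0.58 ± 0.06 (edgeR adjusted p = 0.00023) against db/db and -0.69 ± 0.07 (edgeR adjusted p = 0.00012) against control.

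Gtpbp4, a nucleolar GTPase called Nog1 in yeast, was at 194 and 189 CPM in the corrected lines, against 253, 254, 273 and 268 CPM in the db/db lines and 266, 246, 256 and 253 CPM in the control lines. No other line came near the corrected lines, and the other groups overlapped. The log2 fold change was -0.45 ± 0.06 (edgeR adjusted p = 0.00045) against db/db and -0.42 ± 0.06 (edgeR adjusted p = 0.00082) against control. Rrp1b, a nucleolar protein that binds protein phosphatase 1, was at 159 and 159.6 CPM in the corrected lines, against 205, 201, 208 and 212 CPM in the db/db lines and 214, 211, 209.9 and 209 CPM in the control lines. The 8 other lines lay within a narrow band above the corrected lines, with log2 fold changes of -0.38 ± 0.05 (edgeR adjusted p = 0.00047) and -0.41 ± 0.05 (edgeR adjusted p = 0.00042).

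Pes1, Bop1 and Wdr12 form the PeBoW complex, which is needed for the large subunit RNA. Pes1 and Wdr12 fell in both comparisons, Wdr12 with log2 fold changes of -0.39 ± 0.05 (edgeR adjusted p = 0.00071) and -0.36 ± 0.05 (edgeR adjusted p = 0.0012). Bop1 was at 136 and 134 CPM in the corrected lines, against 189.7, 154, 178 and 136 CPM in the db/db lines and 246, 179.8, 255 and 172 CPM in the control lines. In this gene bdb_db7 was at the level of the corrected lines, and the A5 control lines were far above all others. Bop1 did not pass the test against db/db, at -0.28 ± 0.18 (edgeR adjusted p = 0.25), and fell against control, at -0.66 ± 0.19 (edgeR adjusted p = 0.022).

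Nmd3, the export adaptor of the large subunit, and Nop2, a methyltransferase of its RNA, had the largest falls of the class against db/db. Nmd3 was at 103 and 103 CPM in the corrected lines, against 164, 244, 172 and 243 CPM in the db/db lines and 166, 148, 155 and 154 CPM in the control lines. While the corrected lines were the lowest, the db7 lines stood above all others. The log2 fold change was -0.997 ± 0.16 (edgeR adjusted p = 0.0015) against db/db and -0.60 ± 0.16 (edgeR adjusted p = 0.019) against control. Nop2 was at 175 and 169.9 CPM in the corrected lines, against 373, 245, 375 and 236 CPM in the db/db lines and 275, 339, 282 and 328 CPM in the control lines, again with the corrected lines lowest but with the db5 lines on top. Its log2 fold change was -0.83 ± 0.20 (edgeR adjusted p = 0.01) against db/db and -0.83 ± 0.20 (edgeR adjusted p = 0.012) against control, with wide errors and with the clone names far apart.

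The remaining large subunit factors called in both comparisons were Nop16, Nip7, Ebna1bp2, Ddx18, Ddx56, Gnl2, Gnl3, Mrto4 and Noc2l. Gnl3, the nucleostemin gene and known for its high level in stem cells, was at 216 and 224 CPM in the corrected lines, against 311, 316, 329.7 and 330.1 CPM in the db/db lines and 313, 255, 298 and 262 CPM in the control lines. The corrected lines were the lowest, and B1 control lines were lower than the other control and the db/db lines. Gnl3 had log2 fold changes of -0.55 ± 0.09 (edgeR adjusted p = 0.0012) and -0.36 ± 0.09 (edgeR adjusted p = 0.011). Ddx18, an RNA helicase, had -0.34 ± 0.06 (edgeR adjusted p = 0.0022) and -0.45 ± 0.06 (edgeR adjusted p = 0.00068), and Nip7, an RNA-binding factor, had -0.51 ± 0.09 (edgeR adjusted p = 0.002) and -0.56 ± 0.09 (edgeR adjusted p = 0.0016). Noc3l fell against control, at -0.39 ± 0.10 (edgeR adjusted p = 0.017), and did not pass the test against db/db, at -0.20 ± 0.10 (edgeR adjusted p = 0.15). Rrp1 did not pass the test against control, with a log2 difference of -0.03 (95% interval -0.20 to 0.14, edgeR adjusted p = 0.81), and fell against db/db, at -0.24 ± 0.08 (edgeR adjusted p = 0.034).

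Of the 25 small subunit factors 20 fell in each comparison, with median log2 fold changes of -0.46 against db/db and -0.40 against control. Utp4 and Utp15 belong to the subcomplex that binds the precursor RNA first. Utp4 was at 103 and 101 CPM in the corrected lines, against 154, 166, 153 and 159 CPM in the db/db lines and 163, 149, 160.5 and 147 CPM in the control lines. All 8 other lines were far above the corrected ones and overlapped between groups, and the log2 fold change was -0.63 ± 0.07 (edgeR adjusted p = 0.00016) against db/db and -0.60 ± 0.07 (edgeR adjusted p = 0.00026) against control.

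Utp15 was at 71.5 and 72.9 CPM in the corrected lines, against 112, 120.4, 112 and 123 CPM in the db/db lines and 108, 102, 104 and 98.8 CPM in the control lines. The 3 groups did not overlap, with db/db highest and corrected lowest. The log2 fold change was -0.70 ± 0.06 (edgeR adjusted p = 9.1e-05) against db/db and -0.51 ± 0.06 (edgeR adjusted p = 0.00048) against control. Heatr1, of the same subcomplex, was at 178 and 178 CPM in the corrected lines, against 247, 239, 246 and 266 CPM in the db/db lines and 255, 262, 252 and 264 CPM in the control lines. The 2 corrected lines were nearly equal and below all others, with log2 fold changes of -0.49 ± 0.06 (edgeR adjusted p = 0.00033) and -0.54 ± 0.06 (edgeR adjusted p = 0.00025).

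Nob1, the nuclease that makes the final cut in the small subunit RNA, had the largest fall of this class, at -0.79 ± 0.09 (edgeR adjusted p = 0.00028) against db/db and -0.72 ± 0.09 (edgeR adjusted p = 0.00052) against control. Imp4 and Mphosph10, which form a complex with Imp3 on the U3 particle, fell in both comparisons, Imp4 by log2 fold changes of -0.60 ± 0.09 (edgeR adjusted p = 0.00075) and -0.67 ± 0.09 (edgeR adjusted p = 0.00055). Their partner Imp3 was at 37.8 and 36.7 CPM in the corrected lines, against 50.5, 40.8, 53.6 and 36.1 CPM in the db/db lines and 51.1, 53.9, 52.8 and 51.4 CPM in the control lines. The db7 lines were at the corrected level and the other 6 lines were above it. Imp3 fell against control, at -0.49 ± 0.14 (edgeR adjusted p = 0.023), and did not pass the test against db/db, at -0.28 ± 0.14 (edgeR adjusted p = 0.14).

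The processome factors Utp20, Bms1, Utp14a and Ddx10 did not pass the test in either comparison. Utp20, a large scaffold protein, was at 226 and 218 CPM in the corrected lines, against 202, 227, 209 and 260.4 CPM in the db/db lines and 220.2, 233, 218 and 232 CPM in the control lines. Lines of all 3 groups overlapped, and the log2 difference was -0.02 (95% interval -0.22 to 0.19, edgeR adjusted p = 0.91) against db/db and -0.02 (95% interval -0.23 to 0.19, edgeR adjusted p = 0.87) against control. Bms1, a GTPase, was at 200.4 and 198 CPM in the corrected lines, against 177, 198, 182 and 217 CPM in the db/db lines and 211, 281, 203 and 281 CPM in the control lines. The B1 control lines were the highest, and the corrected lines lay within the db/db range and just below the A5 control lines.

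The log2 difference of Bms1 was 0.04 (95% interval -0.28 to 0.36, edgeR adjusted p = 0.83) against db/db and -0.29 (95% interval -0.62 to 0.03, edgeR adjusted p = 0.15) against control. Utp14a was at 143 and 142 CPM in the corrected lines, against 165, 185, 172 and 193 CPM in the db/db lines and 133, 195, 125 and 197 CPM in the control lines. The A5 control lines were the lowest of all and the B1 control lines the highest. Its difference was -0.33 (95% interval -0.73 to 0.08, edgeR adjusted p = 0.18) against db/db and -0.19 (95% interval -0.59 to 0.21, edgeR adjusted p = 0.44) against control, and reads shared with its retrocopy Utp14b make its level uncertain. Ddx10, an RNA helicase, had both corrected lines below the 8 others, with log2 differences of -0.17 ± 0.06 (edgeR adjusted p = 0.063) and -0.13 ± 0.06 (edgeR adjusted p = 0.16) that did not pass. Intervals such as these do not show that the genes were alike in the groups.

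Emg1, a methyltransferase of the small subunit RNA, fell against db/db, at -0.67 ± 0.23 (edgeR adjusted p = 0.046), and did not pass the test against control, at -0.63 ± 0.23 (edgeR adjusted p = 0.061). The other small subunit factors, Nop14, Rrp9, Utp18, Wdr43, Wdr75, Tbl3, Bysl, Ltv1, Tsr1, Noc4l, Nat10, Nol6 and Pno1, fell in both comparisons, the least being Tbl3 against control, at -0.19 ± 0.06 (edgeR adjusted p = 0.038). Among them Rrp9, a protein specific to the U3 particle, had log2 fold changes of -0.56 ± 0.09 (edgeR adjusted p = 0.0012) and -0.60 ± 0.09 (edgeR adjusted p = 0.0011). Nat10, an RNA acetyltransferase, had -0.53 ± 0.07 (edgeR adjusted p = 0.00061) and -0.40 ± 0.07 (edgeR adjusted p = 0.0027), and Bysl, known as bystin, had -0.58 ± 0.08 (edgeR adjusted p = 0.00071) and -0.64 ± 0.08 (edgeR adjusted p = 0.00058). Exons of 16 of the 56 genes overlap a tested gene on the opposite strand in GENCODE M21. The case with the most abundant neighbour is Bysl, at a mean of 85.3 CPM, which overlaps Ccnd3 at 363 CPM. The libraries were stranded, but whether counting used strand was not stated, so these 16 levels are less certain.

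**Figure D3:**
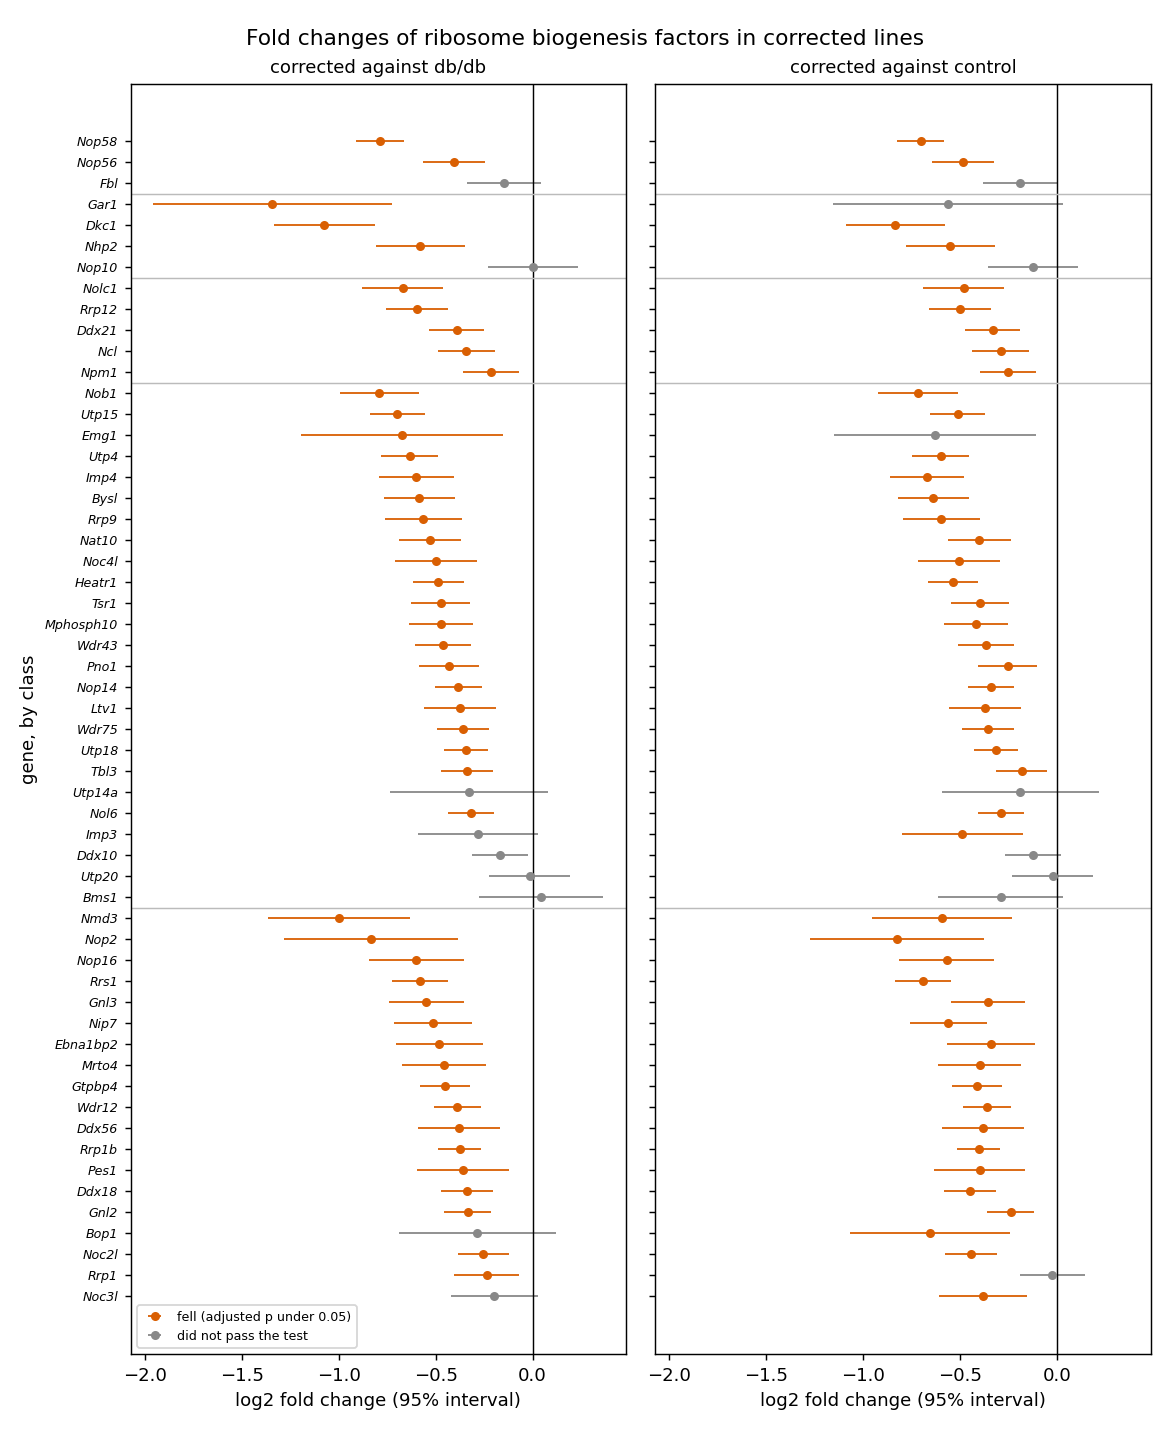
Log2 fold changes of the 56 genes with 95% intervals (x axis), by class from box C/D at the top to the large subunit at the bottom (y axis), for corrected against db/db (left) and corrected against control (right); orange genes fell and grey ones did not pass the test. Nearly all points lie left of 0, from -1.34 for Gar1 to 0.04 for Bms1 on the left.

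Medians by class are given side by side, and differences between classes were not tested. Against db/db the median log2 fold change was -0.41 for the 3 box C/D genes, -0.83 for the 4 H/ACA genes, -0.39 for the 5 nucleolar factors, -0.39 for the large and -0.46 for the small subunit. Against control the same medians were -0.49, -0.56, -0.33, -0.41 and -0.40. The genes that did not pass the test included 1 of the 3 box C/D genes in both comparisons, and 1 of the 4 H/ACA genes against db/db and 2 against control.

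**Figure D4:**
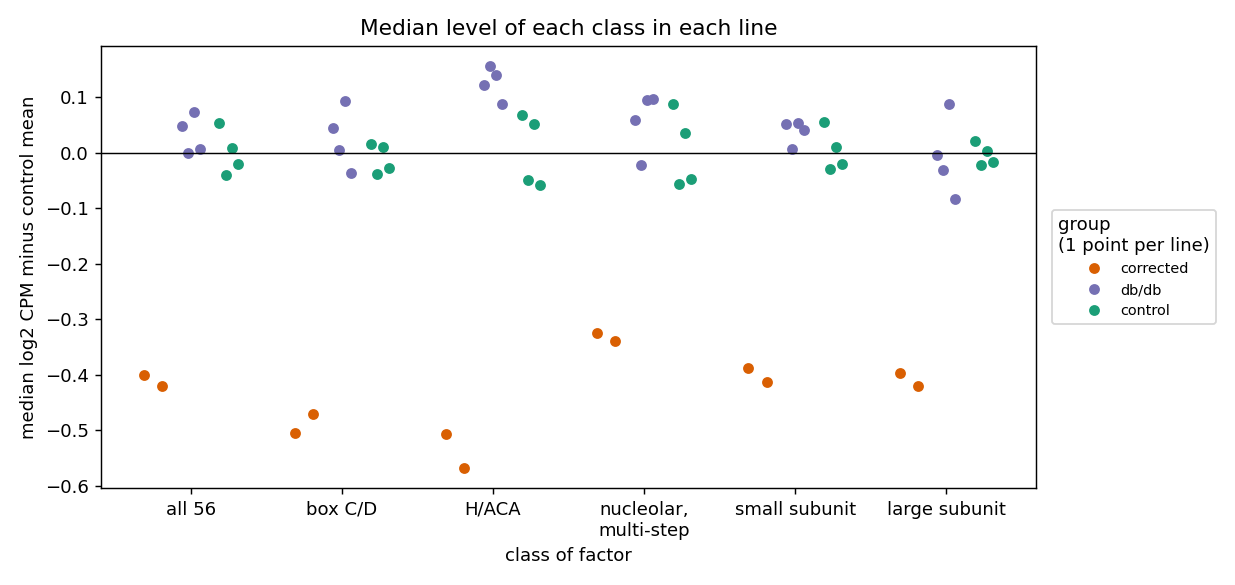
Median over each class of log2 CPM minus the control mean (y axis), 1 point per line, for all 56 genes and each class (x axis). For all 56 genes the 2 corrected lines are at -0.40 and -0.42 and the other 8 lines between -0.04 and 0.07.

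Between db/db and control lines few of these genes differed. Gar1, Rrp1 and Utp15 rose and Noc2l fell, that is 3 of 56 higher and 1 of 56 lower, where 7.41% of all genes tested rose and 9.5% fell. Among all genes from 50 CPM 12.5% rose and 5.38% fell, and 7.28% of those from 10 CPM fell. The median log2 fold change was 0.03. The count was 9 with DESeq2 and 0 when each clone name was 1 sample (edgeR, with 2 genes at an unadjusted p under 0.05), so each of the 4 calls rests on treating lines of one clone name as separate.

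Gar1 rose by 0.78 ± 0.21 (edgeR adjusted p = 0.033) on the log2 scale, with the db5 lines at 123 and 137 CPM close to the A5 control lines at 119 and 116 CPM. Rrp1 was at 164, 149.9, 164 and 144 CPM in the db/db lines, against 128, 143, 127 and 139 CPM in the control lines, a log2 difference of 0.21 ± 0.06 (edgeR adjusted p = 0.043). The groups came close but did not overlap, the nearest being bdb_db7 and aB6_B1. Utp15, given above, rose by 0.18 ± 0.05 (edgeR adjusted p = 0.035).

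Noc2l, a nucleolar protein that also binds histones, was at 261, 257, 257 and 240.4 CPM in the db/db lines, against 281, 305, 279 and 294 CPM in the control lines. All db/db lines were below all control lines, and the log2 fold change was -0.19 ± 0.05 (edgeR adjusted p = 0.024). Without control line 2 or without control line 4, both named B1, 0 of the 56 genes were called by edgeR (8 at an unadjusted p under 0.05 in each case), and without db/db line 2 only 1 was. Without both A5 lines 12 were called and without both db5 lines 13.

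Some factors differed more between clone names of one group than between the db/db and control groups. Gar1, also given here for its differences between clone names, did not, at 0.78 on the log2 scale between those groups. Among the db/db lines Emg1 differed most, at 167, 106, 168 and 98.2 CPM, with the db5 lines high and the db7 lines low, a log2 difference of -0.72 for db7 minus db5. Nop2, also on chromosome 6, had -0.63, while the medians of the 78 and 79 expressed genes around Emg1 and Nop2 were -0.07 and -0.10. In a shorter stretch that holds both, the 24 expressed genes from Pex5 to Cd9 had a median of -0.77. The bounds of that stretch, described under other observations, were chosen after the values were seen. Imp3 on chromosome 9 had -0.44, with 0.05 for its neighbours. Gar1 and Nmd3, on chromosome 3, were higher in db7, by 0.59 and 0.54 on the log2 scale, and the 80 expressed genes around each had medians of 0.47 and 0.57, so the median neighbour differed in the same direction.

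Among the control lines Gar1 differed most, at -0.69 on the log2 scale for B1 minus A5, with a median of -0.43 for its 80 neighbours. Bop1 on chromosome 15 had a difference of -0.51 on that scale, with -0.46 for its neighbours, and Bms1 on chromosome 6 one of 0.44, with 0.41 for its 79 neighbours. Utp14a on the X chromosome had 0.61 while its neighbours had -0.04. Over all genes of at least 10 CPM both medians were 0.00. Outside chromosomes 3, 6 and 15, a choice made after seeing the data, 43 of 50 factors fell against db/db and 44 of 50 against control.

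**Figure D5:**
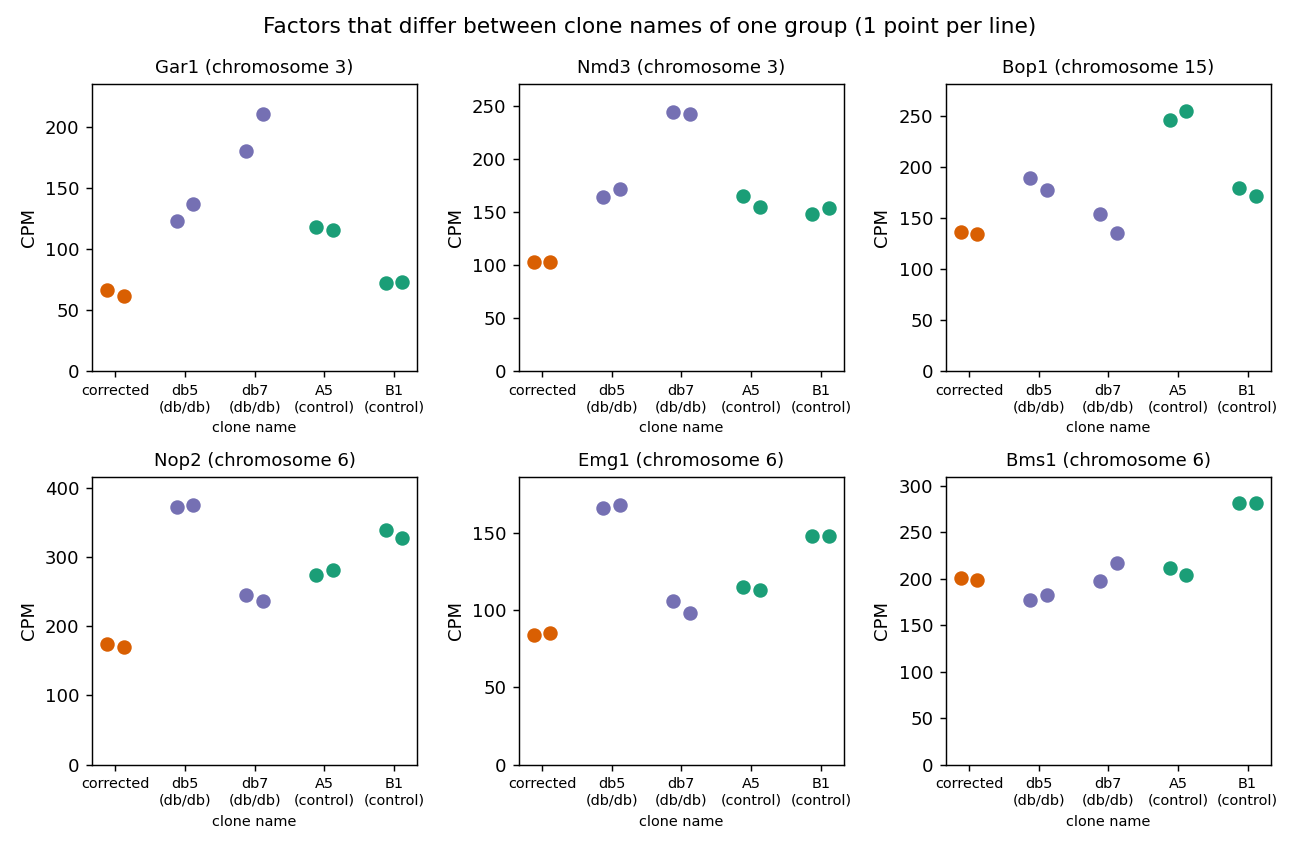
CPM (y axis, from 0) of 6 factors in each line, by clone name (x axis), with the chromosome of each gene. Gar1 and Nmd3 are highest in db7, Nop2 and Emg1 in db5, Bop1 in A5 and Bms1 in B1.

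Several factor genes also house small nucleolar RNAs in their introns. GENCODE M21 places 21 of them on the same strand inside 7 of the 56 genes: 5 in Nop56, 4 in Nop58, 3 each in Ncl, Wdr43 and Gnl3, 2 in Tsr1 and 1 in Dkc1. All 7 hosts fell in both comparisons, as did most of the 56, and the small RNAs themselves were not analysed here. Nop58, at chr1:59684971-59719044 (GRCm38), holds Snord70 and Snord11 among its 4, and Nop56, at chr2:130274430-130279313, holds Snord110 and Snord57 among its 5.

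Most other genes of the same pathway fell as well. Of 89 further factors tested from 4 lists, 62 fell and 1 rose against db/db, with a median log2 fold change of -0.37, and 60 fell and 0 rose against control, with a median of -0.34. Over all genes from 50 CPM 40.2% fell against db/db, with a median of -0.20, and 34.1% against control, with a median of -0.15, and over all genes tested the shares were 18.0% and 17.0%. Between db/db and control, 4 of the 89 rose and 6 fell, against 7.41% and 9.5% of all genes. The small subunit list had 24 of 32 lower against db/db and 25 of 32 against control, among them Ngdn, with log2 fold changes of -1.02 ± 0.08 and -1.04 ± 0.08. The large subunit list had 27 of 36 and 21 of 36 lower, among them Nifk, which binds the proliferation marker Ki-67, with a log2 fold change of -0.70 against db/db.

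The RNA exosome, which trims precursor RNA, had 9 of 11 genes lower against db/db and 8 of 11 against control, with -0.66 for its cap subunit Exosc3 and -0.50 for its nuclease Dis3 against db/db. The list of particle assembly factors had 2 of 10 lower and 1 of 10 higher against db/db, which is near the 18.0% of all genes and under the 30.6% of those from 10 CPM, and 6 of 10 lower against control, where these shares were 17.0% and 26.9%. Its member Shq1, a chaperone of dyskerin, was at 28.6 and 28.7 CPM in the corrected lines, against 28.5, 28.0, 27.4 and 27.3 CPM in the db/db lines and 37.9, 52.3, 38.1 and 53.5 CPM in the control lines. The corrected and db/db lines lay close together and the control lines were higher, and the log2 fold change for db/db against control was -0.71 (edgeR adjusted p = 0.0041). That test took lines of one clone name as separate samples. Shq1 is on chromosome 6, as is Bms1, and its B1 control lines were likewise above its A5 control lines. Of 8 noncoding host transcripts of small nucleolar RNAs, 1 fell against db/db and 4 against control.

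Markers of other cell types also differed between the groups, and the fibroblast list followed another pattern than the factors. Of 14 extraembryonic endoderm markers tested, 11 rose and 0 fell in the corrected lines against db/db, and 10 rose and 1 fell against control. Of all genes tested, 18.7% rose against db/db and 16.2% against control. Their summed level was 461 to 488 CPM in the corrected lines, 219 to 274 CPM in the db/db lines and 271 to 296 CPM in the control lines. Much of this sum in the corrected lines came from the collagen genes Col4a1 and Col4a2. Col4a1 was at 176 and 167 CPM there, 55.8 to 74.0 CPM in the db/db lines and 51.3 to 65.3 CPM in the control lines. Col4a2 was at 96.4 and 91.6 CPM, 32.4 to 38.4 CPM and 26.2 to 37.5 CPM in the same groups. The regulators that define extraembryonic endoderm were at low levels, and several were highest in the corrected lines. Hnf4a was at 14.4 and 14.7 CPM in the corrected lines, 6.80 to 7.31 CPM in the db/db lines and 5.66 to 8.81 CPM in the control lines. Gata4 was at 7.25 and 7.22 CPM in the corrected lines, 3.32 to 6.14 CPM in the db/db lines and 3.77 to 4.82 CPM in the control lines. Sox17 was at 1.55 and 1.2 CPM in the corrected lines, 0.152 to 0.51 CPM in the db/db lines and 0.67 to 0.762 CPM in the control lines. In these 3 genes and in Foxa2 the corrected lines were above all others, while in Gata6 they were above the db/db lines and within the control range. Foxa2 was at 0.157 and 0.173 CPM in the corrected lines, 0.0313 to 0.0928 CPM in the db/db lines and 0.0248 to 0.057 CPM in the control lines. Gata6 was at 1.47 and 1.46 CPM in the corrected lines, 0.313 to 0.603 CPM in the db/db lines and 1.02 to 2.59 CPM in the control lines. Ttr and Afp were under the filter.

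Of 12 pluripotency markers 5 fell and 1 rose against db/db, and 5 fell and 2 rose against control. Of all genes tested, 18.0% fell and 18.7% rose against db/db, and 17.0% fell and 16.2% rose against control. Among genes from 50 CPM 40.2% fell against db/db and 34.1% against control, so 5 of 12 is near the share of abundant genes. The pluripotency markers summed to 6663 to 6687 CPM in the corrected lines, 7286 to 7699 CPM in the db/db lines and 7074 to 7348 CPM in the control lines. Of 13 fibroblast markers tested, 0 fell and 5 rose against db/db, and 1 fell and 2 rose against control, with summed levels of 306 to 365, 196 to 270.4 and 359 to 477 CPM in corrected, db/db and control lines. Against control, 10 of the 13 fell and 0 rose in the db/db lines, where 9.5% of all genes tested fell and 7.41% rose. Lum, also on that list, was under the filter. The part of these cell markers in the lower level of ribosome biogenesis factors was not tested.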

How the data were processed

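Per the labels' protocols, RNA of 19 iPSC libraries was made into stranded mRNA libraries. The authors deposited estimated counts per gene, and the submitters' processing notes name kallisto and the GRCm38 build; neither the version, the index nor the strand setting is given in the sources used here. Of the deposited expected counts 79.7% were whole within 1e-06. Kallisto divides reads between similar transcripts.

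Counts were rounded and summed per line, the replicate used here. The labels do not say that lines or duplicates were separate cultures, so the p-values cover only the spread among these lines, which may be technical. All 3 groups entered 1 edgeR 4.0.16 fit (R 4.3.3, filterByExpr, TMM, quasi-likelihood test, 19702 genes, threshold 0.05, Benjamini-Hochberg). The code was tried on simulated counts in which all lines were independent, so that trial did not cover near-copy lines. The SE is the fold change divided by the square root of F. DESeq2 1.42.0, other scalings and filters, the clone name or library as sample, and leaving out lines were alternatives. Names and coordinates came from GENCODE M21, which named 51336 of 52143 identifiers. Promoter windows were RefSeq (GRCm38.p6). Tables and figures were made with Python 3.11.15 (pandas 2.3.3, matplotlib 3.10.9).

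Values per line are given by rule for up to 2 genes per class and comparison with the lowest p, every gene called between db/db and control, up to 6 uncalled ones and those that differ most between clone names. Ncl, Bop1 and others beyond this were added after their values were seen. The members and lists were chosen with earlier results of these data known.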

Additional observations from a re-analysis of the deposited data

Results flagged for a closer look

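Among 112 groups of 4 lines (56 genes in the db/db and in the control lines), 3 had a lowest line that stood far from the other 3. For 4 independent values chance gives about 1 in 20 groups. Lines that share a clone name were near copies, so that rate does not carry over to these groups. Noc2l in the db/db lines had its lowest value, 240.4 CPM, in bdb_db7. Fbl in the control lines had its lowest value, 299.6 CPM, in bB6_B1. Gnl2 in the control lines had its lowest value, 140.7 CPM, in bB6_A5. The gap to the next line was 0.832, 0.884 and 0.864 of the range of the group in these 3 genes.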

How the results depend on the processing

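No gene called in a comparison changed sign there under any alternative. Of those not called, 5 of 9 did against db/db (Bms1, Ddx10, Fbl, Nop10 and Utp20) and 5 of 9 against control (Ddx10, Nop10, Rrp1, Utp14a and Utp20), as did 27 of 52 in db/db against control. In that last comparison Nop2 (0.01, with a range of -0.35 to 0.29) was called with the other sign under 1 alternative. Nop10 against db/db lay between -0.13 and 0.18. The median for db/db against control also changed sign: it was -0.0135 on library size alone and -0.0063 to 0.063 when lines or clone names were left out. The number of genes called between db/db and control (4) was 9 with DESeq2, 2 on library size alone, 2 without a filter, 2 at 10 CPM or more, 1 with only these groups, 0 by clone name (2 at an unadjusted p under 0.05), and 0 to 13 when lines or clone names were left out. With each library as a sample it was 19 without and 20 with a replicate block. The difference between second and first duplicates was correlated between each control line that has duplicates and each db/db line. These 12 correlations were 0.0113 to 0.531, all positive, and not all passed 0.1. They do not settle whether the replicate numbers mark libraries handled together.

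For corrected against db/db, 47 calls became 36 to 49 and the median -0.47 to -0.39 with lines or clone names left out. For corrected against control, 47 calls became 29 to 46 and the median -0.44 to -0.39, and by clone name 31 genes were called. Medians were -0.27 and -0.27 on library size alone, and -0.35 and -0.34 with a filter at 10 CPM. With clone names and the corrected lines each as 1 sample, 0 genes were called in all 3 comparisons (35, 31 and 1 at an unadjusted p under 0.05 for corrected against db/db, corrected against control and db/db against control). On library size alone, over all genes, 5220 rose and 1817 fell in corrected against db/db, against 3685 and 3552 with TMM, and 4408 and 2049 in corrected against control, against 3182 and 3351. For the 10 genes with the lowest p by class in corrected against db/db, 180 of 190 values kept their call, and the other 10 were lost where the corrected lines were 1 sample. For those of corrected against control 179 kept it and 11 lost it, and for the 4 genes called in db/db against control 49 kept it and 43 lost it. Over all called genes, by clone name 40 of the 47 calls against db/db and 31 of the 47 against control were kept.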

Other observations

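Emg1 and Nop2 lie in a stretch of chromosome 6 where 24 expressed genes from Pex5 to Cd9, starting between 124396816 and 125460266 (GRCm38), differed between the db/db clone names. The bounds were chosen after the values were seen. The median of db7 minus db5 was -0.77 on the log2 scale, 22 of the 24 genes were below -0.5, and Chd4 and Iffo1 were the exceptions. The 20 expressed genes before the stretch and the 20 after it had medians of -0.01 and -0.01, with 3 and 0 genes below -0.5. The corrected lines were at -0.73 relative to db5 and at 0.10 relative to db7 over the 24 genes. Relative to the A5 control lines db5 was at 0.53 and db7 at -0.20, and B1 was 0.44 above A5 in the stretch, 0.42 before it and 0.35 after it.

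The stretch holds Gapdh, often used to normalise PCR. Gapdh was at 3197 and 3129 CPM in the corrected lines, against 7161, 4533, 6795 and 3790 CPM in the db/db lines and 4836, 5811, 4612 and 5620 CPM in the control lines. Its level thus differed between clone names of the same genotype as well as between groups.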
